A study of Mus musculus with 6 samples.

Results

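The inhibitors of cyclin-dependent kinases (CDKs) are 7 genes in mouse: Cdkn1a, Cdkn1b and Cdkn1c of the CIP/KIP family, and Cdkn2a, Cdkn2b, Cdkn2c and Cdkn2d of the INK4 family. Every array probe whose platform gene symbol was one of these was taken, which gave 15 probes of the 45281 on the array, for 7 of its 19057 named genes. RNA was measured on Illumina bead arrays, 3 per group, from Sertoli cells, the somatic nurse cells of the seminiferous tubule. The cells carried a Sox9-GFP reporter and were sorted by fluorescence from mice aged 6 weeks of strain C57B6J/129SvEv. Both groups carried a floxed and a null allele of Rb1 (Rb1 flox/-), so the Control cells kept a single functional copy of this gene, which encodes the retinoblastoma protein. The cKO group also carried Amh-Cre, a recombinase driven by the promoter of anti-Müllerian hormone, which is active in Sertoli cells from fetal life. Only cKO cells had Cre, so Cre itself and loss of Rb1 cannot be told apart, and the labels do not say how many animals lie behind an array, so a p-value here reflects how far the arrays of a group spread, whether for biological or technical reasons.

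CDK inhibitors hold the cell cycle in G1. The INK4 proteins bind CDK4 and CDK6 and keep D cyclins from activating them, whereas the CIP/KIP proteins bind CDK complexes with cyclin E or A as well. Both routes keep the retinoblastoma protein low in phosphate, in the form that holds E2F transcription factors inactive. The retinoblastoma protein thus lies downstream of these inhibitors. Cdkn2a encodes an INK4 protein, p16INK4a, and from an upstream first exon read in another frame the unrelated p19ARF, which binds MDM2 and stabilises p53. Cdkn1a, encoding p21, is a classical p53 target. Sertoli cells stop dividing before puberty, and the p27 protein, encoded by Cdkn1b, and p21 are the inhibitors known for this arrest in mice. Proteins are not measured by these arrays, and p27 in particular is regulated through its degradation.

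RefSeq promoter windows, from 250 bases before to 50 after a transcript start in build GRCm38.p6, were available for 6 of the 7 genes, as 9 windows. The windows of the 2 Cdkn2a starts are shown because probes annotated to different Cdkn2a transcripts gave different readings, and the upstream Cdkn1a window because p53 regulates that gene. Capitals mark an E2F word in the Cdkn2a windows (TTTGGCGC, TTTGCCGC, TTTCGCGC or TTTCCCGC, on either strand) and 2 matches to the p53 decamer in the Cdkn1a window. The decamer is RRRCWWGYYY, with R for A or G, W for A or T and Y for C or T. All windows are printed 5′ to 3′ on the gene's strand.
Cdkn2a upstream start, chr4:89294570-89294869, minus strand: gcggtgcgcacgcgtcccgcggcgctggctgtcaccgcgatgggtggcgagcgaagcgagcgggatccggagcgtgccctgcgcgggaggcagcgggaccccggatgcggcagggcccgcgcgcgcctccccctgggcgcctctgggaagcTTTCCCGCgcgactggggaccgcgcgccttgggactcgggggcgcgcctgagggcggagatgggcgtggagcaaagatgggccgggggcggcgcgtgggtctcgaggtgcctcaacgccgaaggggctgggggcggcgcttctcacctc
Cdkn2a downstream start, chr4:89282143-89282442, minus strand: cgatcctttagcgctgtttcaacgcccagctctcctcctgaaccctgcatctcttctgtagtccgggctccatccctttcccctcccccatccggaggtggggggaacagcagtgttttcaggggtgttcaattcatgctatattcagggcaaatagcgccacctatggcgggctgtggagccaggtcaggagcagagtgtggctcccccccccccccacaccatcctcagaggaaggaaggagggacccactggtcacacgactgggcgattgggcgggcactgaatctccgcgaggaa
Cdkn1a upstream start, chr17:29090729-29091028, plus strand: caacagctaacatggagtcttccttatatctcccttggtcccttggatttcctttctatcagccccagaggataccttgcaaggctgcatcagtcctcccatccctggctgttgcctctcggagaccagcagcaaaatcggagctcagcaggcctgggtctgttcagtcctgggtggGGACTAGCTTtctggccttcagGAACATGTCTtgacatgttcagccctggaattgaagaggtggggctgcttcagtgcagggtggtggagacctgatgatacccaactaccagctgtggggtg
The upstream Cdkn2a window, at the start of the p19ARF transcript, held 1 E2F word, TTTCCCGC, whose first base lay at -99 with the start counted as 0. It was the single window of the 9 with an E2F word, and 2.26% of all 32851 windows of this length hold one. The p53 decamer was found in 2 of the 9 windows, those of the upstream Cdkn1a start and of Cdkn2d, against 8.36% of all windows. The GC box GGGCGG was found on either strand in 7 of the 9, against 35.7% of all, and in the Cdkn2d window 1 GC box overlapped the p53 decamer. The word TTTGAA, the core of the cell cycle homology region bound by the DREAM complex, was found in 1, that of Cdkn2b, against 17.9% of all. These matches describe letters only.

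Of the 15 probes, 11 for 6 genes were detected on at least 3 of the 6 arrays and were tested. Values are log2 intensities after background correction and quantile normalisation, and differences are cKO minus Control. No CDK inhibitor probe passed an adjusted p of 0.05 in limma: 0 of 11 were called, where 0.142% of all 21805 tested probes were called, all 31 of them higher in cKO. Without adjustment, 1 of the 11 passed a p of 0.05, a Cdkn2a probe that was higher in cKO, where 4.63% of all probes passed as higher, 1.76% as lower and 6.39% in either direction. That probe was also the only 1 of the 11 whose cKO and Control arrays did not overlap, against 8.04% of all probes with cKO above, 4.01% with cKO below and 12.1% in all. Of the 11 differences 6 were positive and 5 negative, with a median of 0.36 log2 units, and over all tested probes the median was 0.078 and 57.0% were positive. Counts over the members are given as a description. Fitted with replicate pairs as a block, limma passed 0 probes of the array and 0 members. An unadjusted p under 0.05 was then reached by 3257 of the 21805 tested probes and by 4 of the 11 member probes. Those 4 were Cdkn2a ILMN_1226950, Cdkn1a ILMN_2846775 and the Cdkn1c probe as higher, and the Cdkn2d probe as lower. Leaving out 1 array left 0 calls without Control replicate 1, 2 or 3 (2622, 1058 and 874 probes unadjusted), 2 without cKO replicate 2, 8 without cKO replicate 1 and 15 without cKO replicate 3.

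Both Rb1 probes were lower on every cKO array than on every Control array, by -1.22 ± 0.32 (SE) and -0.98 ± 0.34, with adjusted p of 0.399 and 0.668 in limma, and whether they lie in the deleted part was not determined. The arrays of cKO replicate 1 and Control replicate 3 stood apart, at -113.9 and 110.2 on a first principal component holding 58.9% of the variance, with the other 4 between -34.3 and 31.4, so differences are also given without this pair. Beads per member probe and array numbered 24 to 65, and the standard error over beads was 1.64% to 7.77% of the intensity for tested probes. The number of arrays limits the precision. Sertoli genes with a probe, 10 of 12 listed, were all detected, Sox9 and Dhh among them, with a log2 of their summed level of 15.35 to 15.55 in cKO and 15.53 to 15.77 in Control, and 1 of 10 was positive. Inha, the inhibin subunit of Sertoli cells, read 5.42 on cKO replicate 1, where the other 5 arrays were at 9.92 to 12.85. On the same scale leukocyte genes were at 9.12 to 9.73 in cKO and 7.42 to 8.14 in Control (3 of 3 tested genes positive), endothelial genes at 8.90 to 9.98 and 7.99 to 8.71 (6 of 6), peritubular myoid genes at 11.67 to 13.22 and 10.62 to 10.87 (3 of 3), and Leydig genes at 11.18 to 13.07 and 10.22 to 11.54 (4 of 5). Spermatogonia genes lay at 12.29 to 12.57 in cKO and 12.03 to 12.21 in Control (6 of 7 positive), spermatocyte genes at 13.96 to 14.39 and 13.33 to 14.25 (6 of 6), and spermatid genes at 16.10 to 16.27 and 15.98 to 16.27 (4 of 6). In all these sums the brightest genes weigh most. Over all genes 61.3% of the differences were positive by the brightest probe. A gene could be tested through detection in 1 group alone, so the counts of positive genes depend partly on the filter. Star was detected on 3 cKO and 0 Control arrays, and Emcn and Adgre1 on 3 and 1. The negative Leydig gene, Hsd3b6, was detected on 1 and 2. The mean log2 over the 10 Sertoli genes was 9.60 on cKO replicate 1 and 10.49 to 10.95 on the other arrays, with a median difference of -0.41. Ptprc, Cnn1, Tagln, Hsd3b1, Zbtb16 and Sycp3 were not detected on any array. The part of these cells in the values below was not tested, and in bulk RNA fewer cells of a type and less RNA per cell cannot be told apart.

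Cdkn2a gave the difference with the smallest p among the inhibitors, on 1 of its probes. Probe ILMN_1226950, annotated to transcript NM_009877, read 7.43, 6.95 and 6.89 on the cKO arrays, in the order of replicates 1 to 3 that is kept throughout, and 6.13, 6.03 and 5.44 on the Control arrays. All cKO arrays lay above all Control arrays, and the lowest was the array that stood apart, Control replicate 3. The means were 7.09 ± 0.29 (SD, n = 3) and 5.87 ± 0.37, a difference of 1.22 ± 0.31 (SE), or 2.33-fold, with a 95% interval of 0.51 to 1.94. The unadjusted p was 0.00468 and the adjusted p 0.357 in limma, which does not pass. The difference was positive under each of 15 alternatives, from 0.80 to 1.35, and 0.84 without cKO replicate 1 and Control replicate 3. Over these alternatives the adjusted p in limma ran from 0.142, with array quality weights, to 0.966. In the fit with replicate pairs as a block the unadjusted p was 0.00286 and the adjusted p 0.186 in limma.

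The other probe annotated to the same Cdkn2a transcript, ILMN_1221177, gave a smaller difference. It read 6.48, 6.15 and 6.05 on the cKO arrays and 6.17, 5.85 and 5.58 on the Control arrays. These ranges overlapped, although within each replicate number the cKO array was higher, by 0.31, 0.30 and 0.47. The difference was 0.36 ± 0.28 (SE), with an interval of -0.29 to 1.01 and an adjusted p of 0.766 in limma, and it was 0.089 without the pair of arrays that stood apart. Both probes were dim: ILMN_1226950 had scanner intensities of 159.1 to 172.7 in cKO and 81.4 to 93.1 in Control, and ILMN_1221177 had 99.3 to 103.3 and 75.7 to 94.8, where the dimmest detected probes of an array lay between 58.5 and 68.0.

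The third Cdkn2a probe, ILMN_1227342, was not detected on any array. It is annotated to NM_001040654, the transcript for p16INK4a, whereas NM_009877 is that for p19ARF. Its intensities were 54.0, 45.0 and 46.1 on the cKO arrays and 44.3, 50.8 and 46.6 on the Control arrays, all below the dimmest detected probe of the same array. The highest detection score was 0.841, where 0.95 is needed. The 2 transcripts share their later exons, and the sources used here do not place the probes within them, so the readings cannot be assigned to 1 transcript with certainty.

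**Figure D1:**
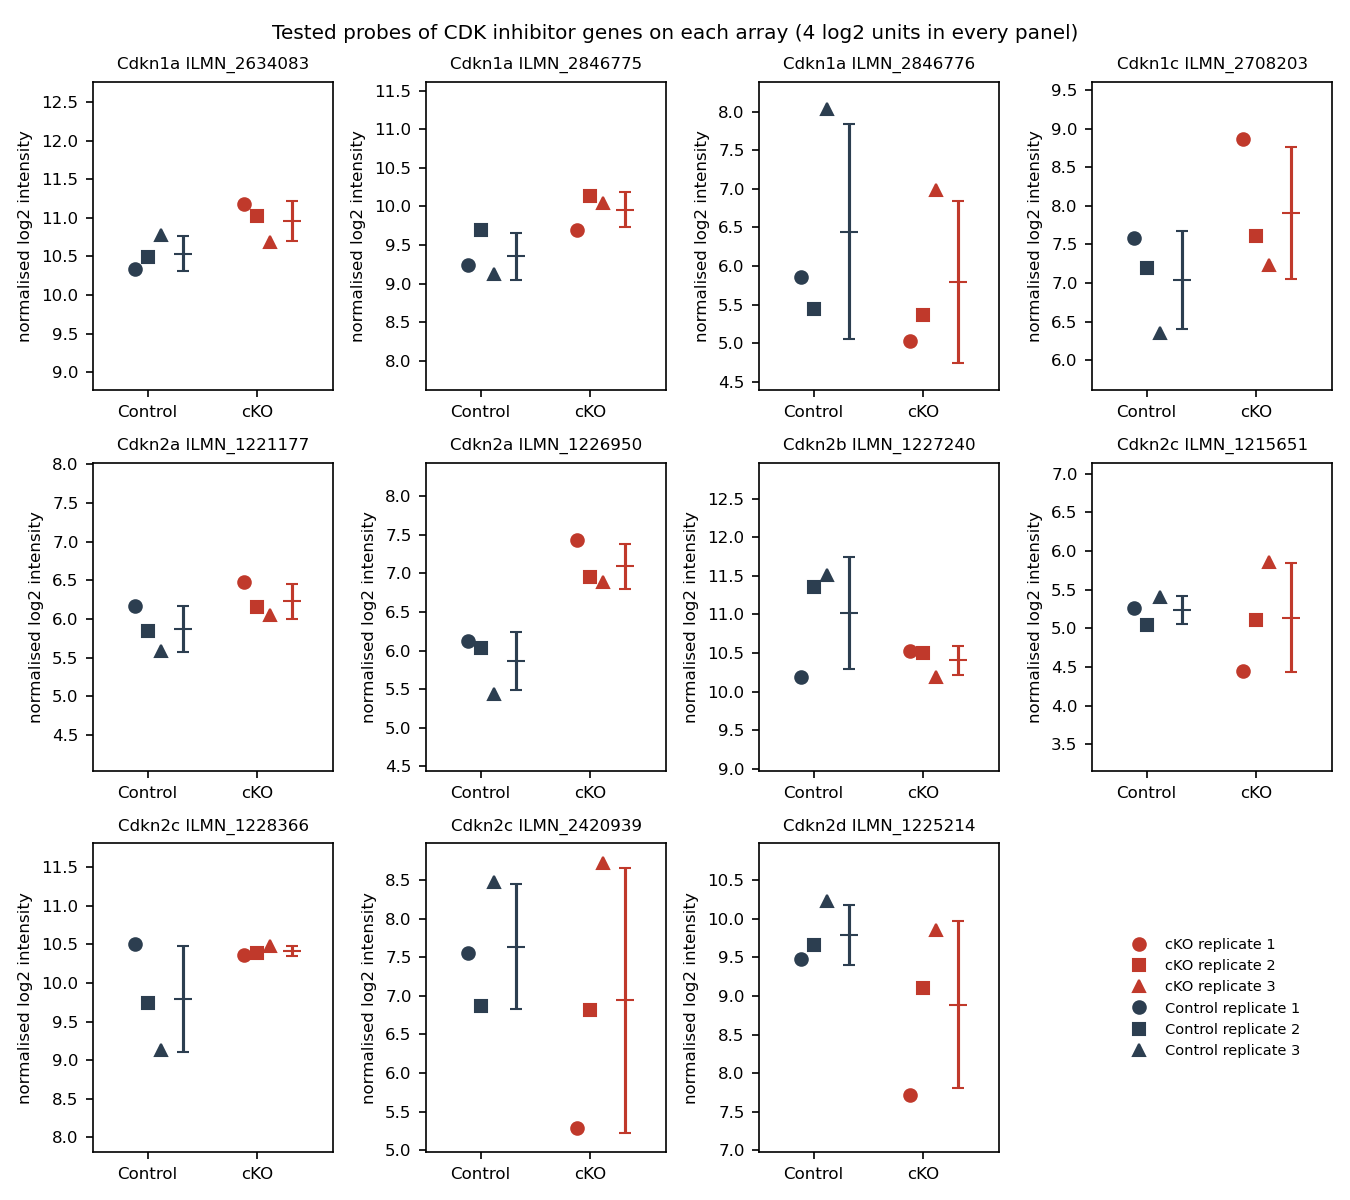
Normalised log2 intensity (vertical axis, 4 units in every panel) of the 11 tested probes of CDK inhibitor genes, with a point for each Control and cKO array and bars for the mean and SD of 3 arrays beside them. Only for Cdkn2a probe ILMN_1226950 do all cKO arrays lie above all Control arrays, and for Cdkn2d the low cKO point is replicate 1.

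Cdkn2b, the neighbour of Cdkn2a on chromosome 4, encodes p15INK4b, an inhibitor of CDK4 and CDK6 induced by TGF-beta. Its probe read 10.53, 10.50 and 10.19 on the cKO arrays and 10.19, 11.36 and 11.51 on the Control arrays. Control replicates 2 and 3 lay above every cKO array, and Control replicate 1 was level with the lowest of them. The means were 10.41 ± 0.19 (SD, n = 3) in cKO and 11.02 ± 0.73 in Control, a difference of -0.61 ± 0.39 (SE), with an interval of -1.53 to 0.31 and an adjusted p of 0.766 in limma. The sign was negative in all 15 alternatives, from -1.03 without Control replicate 1 to -0.37 without Control replicate 3. These neighbouring genes therefore gave differences of opposite sign, and the contrast between them was not tested.

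Cdkn2c encodes p18INK4c, an INK4 inhibitor that acts in germ cells as well as somatic cells, and its 3 probes disagreed. ILMN_1228366 read 10.36, 10.39 and 10.48 on the cKO arrays and 10.51, 9.74 and 9.13 on the Control arrays. The cKO arrays were close together and the Control arrays were spread over more than a unit, with Control replicate 1 above them all. The difference was 0.62 ± 0.37 (SE), with an interval of -0.26 to 1.49 and an adjusted p of 0.766 in limma. ILMN_2420939, annotated to a clone sequence, read 5.29, 6.82 and 8.72 in cKO and 7.56, 6.87 and 8.48 in Control. Its arrays differed more within a group than between groups, and cKO replicate 1 was below detection. Its difference was -0.69 ± 0.84, and 0.14 without cKO replicate 1. The dim probe ILMN_1215651 was detected on 4 of 6 arrays and gave -0.094 ± 0.39, or 0.25 without cKO replicate 1. Without both arrays that stood apart the 3 probes were all positive, at 0.31, 0.56 and 0.34, and the signs of the dimmer probes ILMN_2420939 and ILMN_1215651 depend on which arrays are used. The bright probe ILMN_1228366 was positive in all 15 alternatives, from 0.29 without Control replicate 3 to 0.97 without Control replicate 1.

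Cdkn2d encodes p19INK4d, which is known from spermatocytes and from postmitotic neurons. Its probe read 7.72, 9.10 and 9.85 on the cKO arrays and 9.48, 9.66 and 10.23 on the Control arrays. A single array, cKO replicate 1, was far below the rest, and cKO replicate 3 lay within the Control range. The difference was -0.90 ± 0.54 (SE), with an interval of -2.17 to 0.37 and an adjusted p of 0.766 in limma. It was -0.32 without cKO replicate 1 and -0.094 without both arrays that stood apart, so its size depended mostly on those arrays. Leaving both out compares cKO replicates 2 and 3 with Control replicates 1 and 2, which breaks up same-numbered pairs. Within each replicate number the cKO array was lower, by -1.76, -0.55 and -0.39. With replicate pairs as a block the unadjusted p was 0.0459 and the adjusted p 0.327 in limma. Spermatocyte genes had means over 6 genes of 10.70, 10.31 and 10.57 in cKO against 10.51, 9.58 and 10.01 in Control, and their part in the difference was not tested. Of the Sertoli genes, Inha was low on cKO replicate 1. The 2 Sox9 probes differed on that array. The brighter read 11.82, within its range on the other arrays, and the dimmer read 6.14, against 7.71 to 9.39 on the others. The mean over the 10 Sertoli genes was 9.60 on cKO replicate 1 and 10.49 to 10.95 on the other arrays. Their part in the Cdkn2d difference was not tested.

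Cdkn1a, encoding p21, was bright on 2 of its 3 probes. ILMN_2634083 read 11.18, 11.02 and 10.68 on the cKO arrays and 10.34, 10.49 and 10.78 on the Control arrays. Here cKO replicates 1 and 2 were above every Control array and replicate 3 was not. The difference was 0.42 ± 0.27 (SE), or 1.34-fold, with an interval of -0.21 to 1.06. ILMN_2846775 read 9.70, 10.13 and 10.05 in cKO and 9.24, 9.70 and 9.12 in Control. Its arrays met at 9.70, shared by cKO replicate 1 and Control replicate 2, and otherwise cKO was higher. The difference was 0.61 ± 0.28, or 1.52-fold, with an interval of -0.051 to 1.27, and both probes had an adjusted p of 0.766 in limma. Both were positive in all 15 alternatives, from 0.31 to 0.61 and from 0.49 to 0.78. In the limma fit with replicate pairs as a block ILMN_2846775 had an unadjusted p of 0.0434 and an adjusted p of 0.321. ILMN_2634083 had 0.174 and 0.484 in that fit.

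The third Cdkn1a probe, ILMN_2846776, went the other way and was dim. It read 5.03, 5.37 and 6.99 in cKO and 5.86, 5.45 and 8.03 in Control. The arrays of replicate 3 were the highest in both groups, and cKO replicate 1 was below detection. The difference was -0.65 ± 0.77 (SE) and the adjusted p in limma 0.806, and the difference was 0.14 without Control replicate 3. All 3 probes are annotated to the same transcript, and the sources used here do not give their positions in it. Without both arrays that stood apart all 3 were positive, at 0.43, 0.62 and 0.52.

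Cdkn1c encodes p57, an imprinted inhibitor that is expressed in differentiating cells and also in Leydig cells. Its probe read 8.87, 7.61 and 7.24 on the cKO arrays and 7.58, 7.19 and 6.35 on the Control arrays. The highest value was cKO replicate 1 and the lowest Control replicate 3, the arrays that stood apart, and the other 4 lay between 7.19 and 7.61. The difference was 0.87 ± 0.51 (SE), or 1.82-fold, with an interval of -0.32 to 2.05 and an adjusted p of 0.766 in limma. Without those arrays it was 0.041, a comparison of cKO replicates 2 and 3 with Control replicates 1 and 2 that breaks up 2 of the 3 same-numbered pairs. Within each replicate number cKO was higher, by 1.29, 0.42 and 0.88, and with replicate pairs as a block the unadjusted p was 0.0198 and the adjusted p 0.270 in limma. Leydig genes had means of 8.78, 7.67 and 7.88 in cKO against 6.79, 7.15 and 7.31 in Control. The cKO arrays were highest on replicate 1 for Cdkn1c and for these genes, as they were for endothelial genes at 7.17 and leukocyte genes at 7.70. Peritubular myoid genes were highest on cKO replicate 3, at 8.77. Control replicate 1 was the highest Control array for Cdkn1c and the lowest for Leydig genes. On the Control arrays endothelial genes were at 6.00, 5.95 and 5.37 and myoid genes at 7.66, 7.35 and 7.03. Both fell from replicate 1 to 3, as Cdkn1c did. Leukocyte genes were at 6.19, 6.19 and 5.61 on the Control arrays. The part of these cells in the difference was not tested.

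Cdkn1b, which encodes p27, had no probe that could be tested. ILMN_1228598 was not detected on any array, with intensities of 34.3 to 40.0 in cKO and 34.4 to 37.3 in Control. ILMN_2638428 read 44.4, 53.9 and 45.4 on the cKO arrays and 49.7, 43.9 and 168.4 on the Control arrays, and ILMN_2923960 read 43.9, 44.2 and 41.6 against 39.8, 40.7 and 90.8. Both were detected on 1 array alone, Control replicate 3, which stood apart from the rest. No fold is given for Cdkn1b, since neither group had more than 1 array above background. Signal above background was thus recorded on 1 of 6 arrays, and on the other 5 the level of Cdkn1b transcripts is not resolved.

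**Figure D2:**
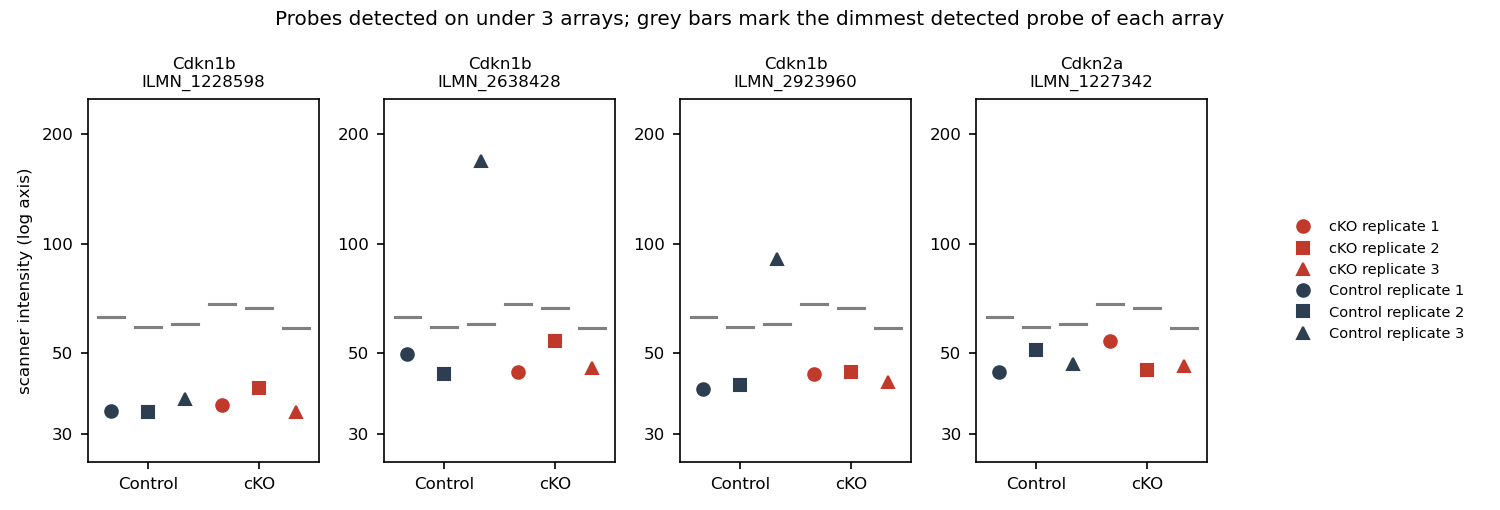
Scanner intensity on a log axis for the 4 CDK inhibitor probes detected on under 3 arrays, 3 of Cdkn1b and the Cdkn2a probe annotated to the p16INK4a transcript, with a point per Control and cKO array. Grey bars mark the dimmest detected probe of each array, from 58.5 to 68.0, and only Control replicate 3 rises above them, on 2 Cdkn1b probes.

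**Figure D3:**
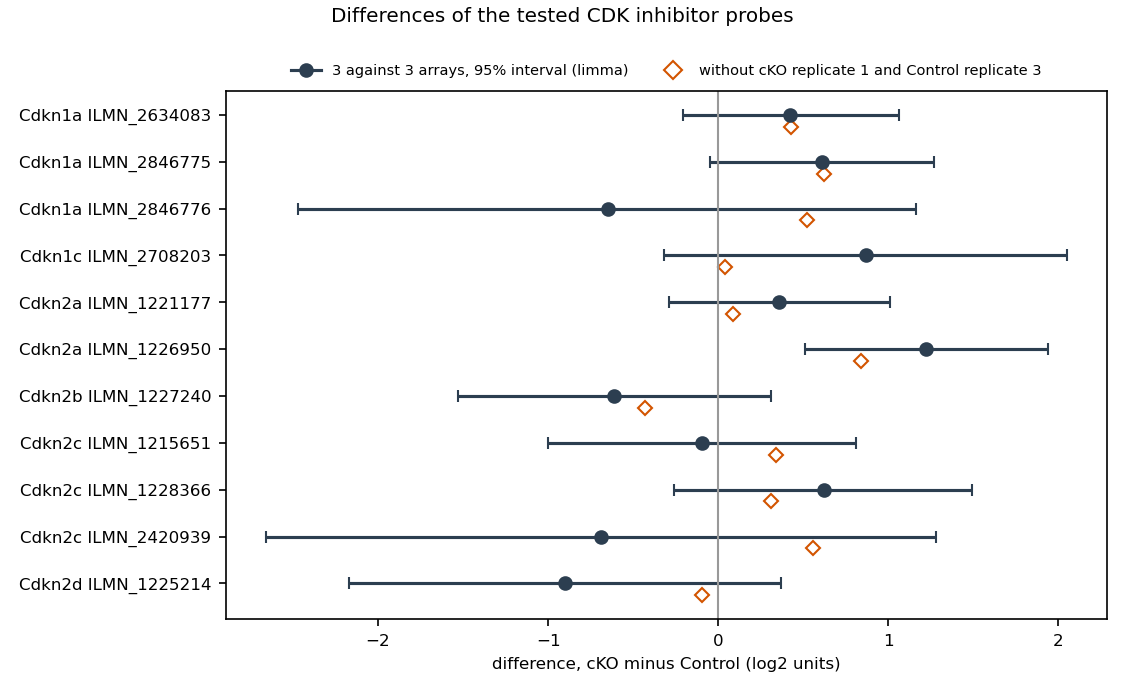
Difference of cKO minus Control in log2 units for the 11 tested CDK inhibitor probes, with circles and 95% intervals from limma over 3 and 3 arrays, and open diamonds for the values without cKO replicate 1 and Control replicate 3. The interval of Cdkn2a probe ILMN_1226950, 0.51 to 1.94, lies above 0 and the other 10 include 0.

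The intervals show what the arrays could and could not resolve. The median width of the 95% interval was 1.81 log2 units for the 11 member probes and 1.61 for all tested probes. The bright Cdkn1a probes were bounded above at 1.06 and 1.27 log2 units, or 2.08-fold and 2.41-fold higher in cKO. Cdkn2b was bounded above at 1.24-fold, and Cdkn2d at 1.29-fold. At the lower end Cdkn2b could be as low as 0.346 and Cdkn2d as low as 0.223 of the Control level. An adjusted p that misses the threshold does not show that any of these genes was unaltered.

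The genes whose array profiles lay nearest to each inhibitor were found among 12277 genes, by the brightest tested probe of each gene. Closeness was the root mean square distance between log2 values centred over the 6 arrays, and clone and predicted names were passed over. The probes were ILMN_2634083 for Cdkn1a, ILMN_1226950 for Cdkn2a and ILMN_1228366 for Cdkn2c, whose other probes read differently. For Cdkn2a these were Slc6a8, a creatine transporter, at 0.071 log2 units, Tbc1d2b at 0.088 and Cebpd, a C/EBP transcription factor, at 0.092, where the median gene lay at 0.64. For Cdkn1a they were Eed, a polycomb subunit, at 0.073, Tex264 at 0.11 and Eef1b2 at 0.11, against a median of 0.46. The nearest to Cdkn1c were Cela2a and Ltc4s at 0.10 and Dppa5a at 0.11, and to Cdkn2b Ldhb at 0.083, Pcmtd2 at 0.14 and Mpv17 at 0.16, with medians of 0.69 and 0.72. Cdkn2c lay nearest to Igfals at 0.080, Gsk3b at 0.081 and Csmd1 at 0.092, and Cdkn2d to Snx12 at 0.068, Akap12 at 0.084 and Cul2 at 0.087, with medians of 0.54 and 0.98. All of these profiles include the arrays that stood apart, and likeness over 6 arrays says nothing of shared function.

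Around the inhibitors 98 genes were listed, from the kinases and cyclins they bind to the factors that regulate them, and 76 had a tested probe. None passed at an adjusted p of 0.05 in limma, where 0.195% of all genes were called by their brightest probe. Before adjustment 11 passed a p of 0.05 as higher and 2 as lower, against 5.96% and 1.81% of all genes, and the lowest adjusted p was 0.254. The arrays did not overlap for 15 as higher and 6 as lower, where 9.56% and 4.33% of all genes did so. Of the 76 differences 47 were positive, with a median of 0.095, and over all genes 61.3% were positive with a median of 0.12.

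The partners of the inhibitors had mixed signs. Of 8 measured kinase and cyclin genes 4 were positive, with a median of 0.16. Ccnd1, a D cyclin, read 7.96, 7.30 and 7.46 in cKO and 6.70, 6.90 and 6.36 in Control, a difference of 0.92 ± 0.30 (SE) that another probe repeated at 0.92. Ccne1, the E cyclin that is an E2F target, gave 1.03 ± 0.37 and 1.13 without the pair of arrays that stood apart. For both, all cKO arrays were above all Control arrays, and the adjusted p were 0.594 and 0.678 in limma. Ccna1, a cyclin of meiotic germ cells, gave 0.66 ± 0.36, and Ccnd3 gave 0.65 ± 0.44 (another probe 0.13). Their values without that pair were 0.59 for Ccnd1, 0.18 for Ccna1 and 0.25 for Ccnd3. The negative differences, given here after their values were seen, were those of the kinase genes Cdk4, Cdk2 and Cdk1 and of Ccnd2. Cdk2 gave -0.33 ± 0.24, with all cKO arrays below all Control arrays. Its other probes gave -0.95, -1.38 and -0.82, and their groups overlapped. The first was highest on Control replicate 3, at 9.33, and the second lowest on cKO replicate 1, at 7.57. The last was highest on both arrays of replicate 3, at 8.68 in cKO and 10.01 in Control. Cdk4 gave -1.85 ± 1.29 (another probe 0.53), Cdk1 gave -0.75 ± 0.75 (another probe 0.20) and Ccnd2 gave -0.35 ± 0.58. Cdk4 and Cdk1 were lowest on cKO replicate 1, at 4.88 and 7.55, and Ccnd2 was highest on Control replicate 3, at 6.99. Cdk6, Ccna2 and Ccnb2 were not detected on any array.

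Genes for turnover of p27 and p21 had a median of 0.0037 over 11. Ddb1, part of the ligase that marks p21 for destruction, gave -0.44 ± 0.26 (SE) with all cKO arrays below all Control arrays. Cul4b gave -0.48 ± 0.33, Cops5 gave -0.37 ± 0.40 and 0.15 without the pair of arrays that stood apart, and Cul4a gave -0.19 ± 0.28. Skp2, which recognises p27 for ubiquitination, was at 0.040 ± 0.27, and was named after its value was seen.

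Regulators of inhibitor transcription were measured as activators and repressors. The 13 activators with a tested probe had a median of -0.0075. Cebpb, a C/EBP factor of inflammation and arrest, read 10.68, 9.68 and 9.84 in cKO and 8.48, 8.59 and 7.51 in Control. All cKO arrays were higher, and the difference of 1.87 ± 0.41 (SE) had an adjusted p of 0.254 in limma and was 1.23 without the pair of arrays that stood apart. Ets2, an ETS factor that activates p16INK4a, gave 0.57 ± 0.30 (0.31 without that pair), Smad3 gave 0.44 ± 0.35 (0.23) and Dmtf1, an activator of the p19ARF start, -0.31 ± 0.27, with other Dmtf1 probes at -1.45 and -0.14. The 15 repressors of the Cdkn2a locus had a median of 0.10. Cdc6, a replication licensing factor reported to repress the locus, gave 0.87 ± 0.26, the polycomb genes Ezh2 and Bmi1 gave 0.69 ± 0.34 and 0.55 ± 0.30, and Eed gave 0.37 ± 0.26. Ezh2 was at 0.32 without the same pair.

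The axis from p19ARF through MDM2 to p53 had a median of 0.38 over 9 measured genes of 12 listed, with 7 positive. Trp53, which encodes p53, was listed here and among the activators but had no tested probe. Ccng1, a cyclin induced by p53, read 10.87, 10.42 and 10.24 in cKO and 8.61, 9.55 and 8.91 in Control. Its cKO arrays lay above all Control arrays, and the difference was 1.49 ± 0.34 (SE) and its adjusted p in limma was 0.272. Other Ccng1 probes gave 1.11 and 1.04. The growth arrest gene Gadd45a gave 0.75 ± 0.26 (another probe 0.47), Mdm2, itself a p53 target, gave 0.57 ± 0.27 (other probes 0.48 and -0.021, and 0.31 without the pair of arrays that stood apart), and Pml gave 0.40 ± 0.28 (another probe 0.84). Genes listed for the DREAM complex, which represses cell cycle genes in quiescence, had a median of 0.15 over 10 of 12. Lin9 and Lin52 were not detected on any array. The histone chaperone Rbbp4, which binds the retinoblastoma protein, read 7.41, 8.01 and 7.23 in cKO and 8.90, 8.60 and 8.77 in Control. Its cKO arrays were all lower, by -1.20 ± 0.29 with an adjusted p of 0.336, and other probes gave -1.32 and -1.80, each with Control replicate 3 far above the rest. The pocket protein Rbl1 gave 1.34 ± 0.42 (another probe 0.22, and 0.82 without that pair), E2f5 gave 0.52 ± 0.28 and Tfdp2 gave -0.53 ± 0.32, with its 4 other probes between -0.16 and 0.22.

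Transcripts that are often followed in senescent cells had a median of 0.48 over 10 measured genes, with 8 positive. Over all genes 61.3% were positive. Of the 8, Igfbp5 and Plaur were tested through cKO arrays mainly, with detection on 3 cKO arrays and 1 Control array. Igfbp3, a secreted binding protein of insulin-like growth factors, read 9.32, 9.50 and 10.33 in cKO and 7.49, 8.65 and 7.78 in Control. All cKO arrays were higher, and the difference was 1.74 ± 0.41 (SE) and its adjusted p in limma was 0.309. Lmnb1, the lamin whose loss accompanies senescence, was higher on all cKO arrays, at 0.93 ± 0.30 (another probe 0.38). Glb1, the lysosomal galactosidase behind the senescence stain, gave 0.90 ± 0.35 (other probes 0.16 and 0.14, and 0.44 without the pair of arrays that stood apart), and Igfbp7 gave -1.04 ± 0.37 with all cKO arrays lower. Hmga2, Il6 and Mmp3 were not detected on any array. None of these genes passed.

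**Figure D4:**
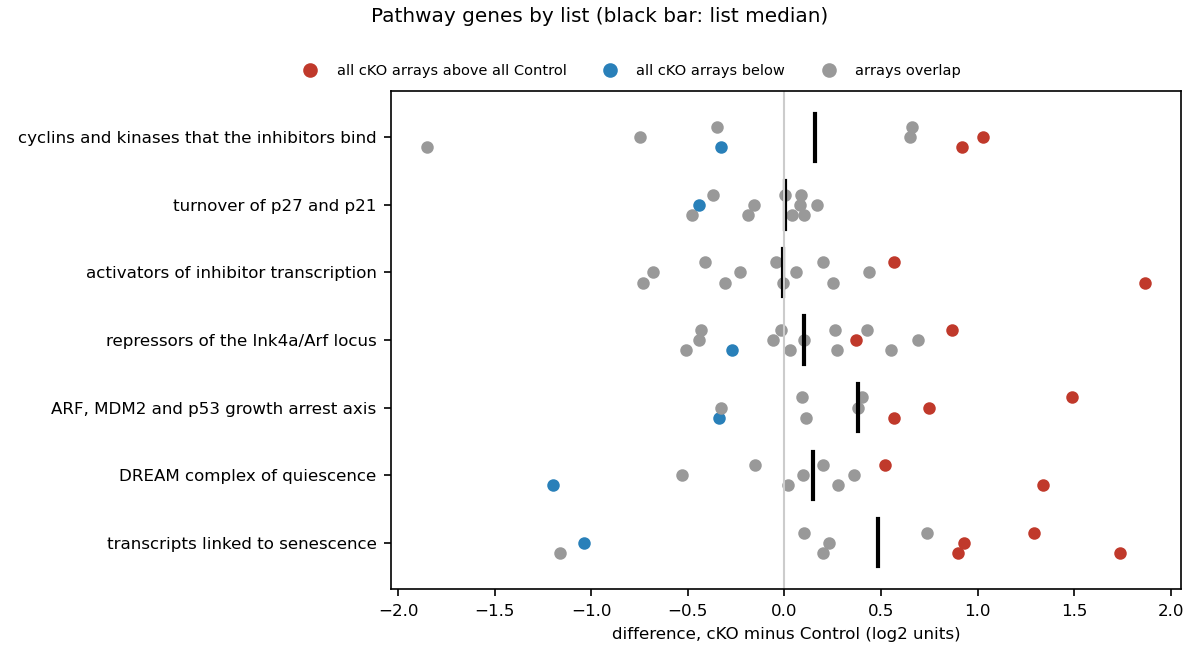
Difference of cKO minus Control in log2 units (horizontal axis) for the brightest tested probe of each gene in 7 lists around the CDK inhibitors, with a point per gene and a black bar at each list median. List medians run from -0.0075 for activators of transcription to 0.48 for transcripts linked to senescence, and coloured points mark genes whose groups did not overlap.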

How the data were processed

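Per the file headers, each scanner table holds the mean intensity of a probe over its beads, their spread, how many beads there were, and a score for detection. The authors deposited these intensity values linear and, as far as the values show, unscaled between arrays, and the submitters' processing notes name BeadStudio. The deposited detection score rises with signal, and over 0.95 was taken as detection. The authors' deposited series table holds log2 values, which equal log2 intensity minus each array's 75th percentile, centred per probe; all 45281 entries matched 1 scanner probe within 0.00069, which carried the platform gene symbols over (34885 probes with 1 symbol, 18 with several, 10378 with none). Medians of these columns were 0.244, -0.022 and -0.194 for cKO and 0.040, 0.098 and -0.301 for Control, and their scale, centring and direction follow from that match.

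Intensities were corrected and quantile-normalised as in neqc (offset 16, background from the detection score) with limma 3.58.1 in R 4.3.3. Probes detected on at least 3 of 6 arrays were tested with lmFit and eBayes, in a model of group alone, and two-sided p-values were adjusted by Benjamini-Hochberg over 21805 probes. All probes of members are named; of each list, up to 4 genes with the smallest p by their brightest probe, and the 3 genes nearest each member. Genes below the fourth are marked. Members, lists and settings were chosen with earlier results of these data known. Replicate numbers are shared by the groups; deviations of same-numbered arrays correlated at 0.262, 0.410 and 0.473, all over 0.1, so the numbers were taken as pairs and used as a block in an alternative.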

Additional observations from a re-analysis of the deposited data

How the results depend on the processing

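No CDK inhibitor probe was called under any of the 15 alternatives, and no pathway gene either. The number of called probes on the array, 31, was 12 without background correction, 12 with normexp at offset 50, 1 without the filter on dim probes, 0 with the replicate block, 149 with array quality weights, 6 without both cKO replicate 1 and Control replicate 3, and 0 to 15 when 1 array was left out; the cause was not tested. The array weights were estimated gene by gene, a method chosen after the default one did not converge. They were 8.44 for cKO replicate 2 and 0.375 to 1.19 for the other arrays, so that array weighs most in the cKO values of this setting. The replicate block changed no call among the inhibitors. The median difference of the tested inhibitor probes, 0.36, ran from -0.0014 without the filter to 0.52 with detection on all 6 arrays. Of 162 values of single inhibitor probes under the alternatives, 156 kept their direction and 6 did not; the 3 probes below had no value where detection on all 6 arrays was required. Cdkn1a probe ILMN_2846776 was at 0.14 without Control replicate 3, with -1.25 as its lowest when 1 array was left out, and at 0.52 without both arrays that stood apart. Cdkn2c probe ILMN_1215651 was at 0.25 without cKO replicate 1, with -0.46 as its lowest, and at 0.34 without both, and ILMN_2420939 was at 0.14, with -1.58 as its lowest, and at 0.56. Signal near background limits the Cdkn1b probes, the dim Cdkn2a probes and these dim probes.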
